A study of Mus musculus with 2 samples.

Results

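The endothelial marker transcripts measured in the wall of the mouse aorta after perfusion with a detergent were followed through 10 marker genes, Pecam1, Cdh5, Tek, Tie1, Vwf, Nos3, Emcn, Esam, Egfl7 and Cldn5. Members were taken as the probes that the array files name for these genes. Under the members' own names this found 14 probes for 9 genes. Esam is listed under its older name Esam1 and was matched through its accession, which made 15 of the 41150 probes and 10 of 27380 genes or transcripts on the array. Of the 10 members 9 were measured, among 21366 genes or transcripts measured in all, measured meaning that a probe rose clearly over background in the same region on each array. Tie1 did not.

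The endothelium is the single layer of cells that lines every vessel. Its cells hold together through junction proteins, respond to vascular growth factors through receptor tyrosine kinases, make nitric oxide, which relaxes the underlying smooth muscle, and store von Willebrand factor, which platelets bind. In a large artery the lumen is lined by this layer, and the outer coat holds further endothelium in its own small vessels. A detergent passed through the lumen reaches the lining, and the members' signals describe the RNA of endothelial markers in the material that was hybridised.

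Both groups came from wild-type (WT) C57Bl/6 mice of an age of 16 weeks, and in both the vessel was perfused with Triton X-100 before it was divided. The arch pool, from a part of the vessel prone to atherosclerosis, ran from the root through the arch to 2 mm into the thoracic aorta. The thoracic pool, from a part resistant to it, held the 6 mm beyond. Each pool joined RNA of 6 mice (3 males and 3 females). Both pools were put on each of 2 Agilent two-colour arrays, array 1 with the arch labelled by Cy5 and array 2 with the arch labelled by Cy3. The arrays thus make up 1 replicate, and no test or p-value is possible. Values after ± give how far each array lay from the mean of both, a technical error. Neither array holds an aorta that was not perfused, so the amount of endothelial RNA removed was not measured here.

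Signals are given in intensity units as the mean signal of a spot minus its local background. Non-specific signal differed by dye: the median of 314 negative control spots was 10.3 in the arch channel and 27.1 in the thoracic channel of array 1, and 25.9 in the arch channel and 9.90 in the thoracic channel of array 2, the higher value being Cy3 on each array. The median gene spot stood at 39.2 and 54.4 for the arch (arrays 1 and 2), against 55.9 and 43.4 for the thoracic aorta, and by the scanner software's flag 71.3% to 81.5% of the gene spots in a channel stood well above background. The smooth muscle markers that define the labelled tissue were well above background in both pools, with 7 of 7 measured.

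RNA of endothelial markers was detected in both regions after the perfusion. In the arch 11 of the 15 member probes were well above background on both arrays, and in the thoracic aorta also 11. In the arch 70.3% of all probes met this, against 72.7% of all probes for the thoracic pool, so the members' share lay near the array's own. The 11 probes in each region covered 9 of the 10 genes. No member probe was saturated. As an added measure, 11 probes in each region stood above the 95th percentile of the negative controls on both arrays. Of all probes 67.8% did so for the arch and 74.6% for the thoracic pool. The measures did not take the same probes. The dimmer Cdh5 probe was well above background in every channel but under the percentile in Cy3. The brighter Pecam1 probe passed it narrowly in Cy3, with 40.0 units against 38.6 in the arch and 35.8 against 34.9 in the thoracic pool. In Cy3 the flag was also set on 10.8% (arch) and 6.69% (thoracic) of the negative control spots.

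**Figure D1:**
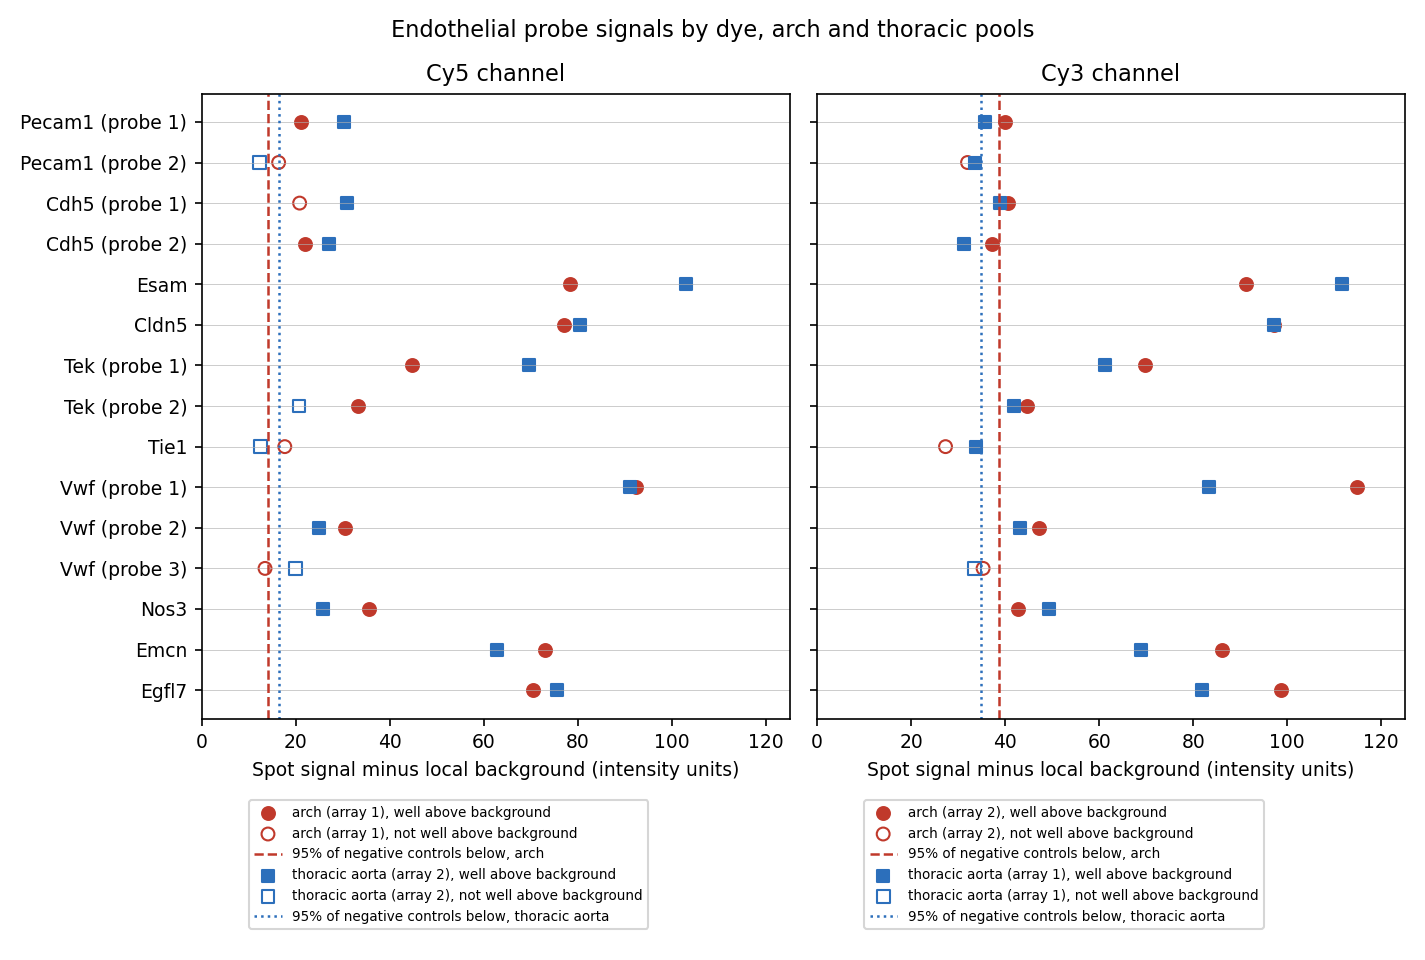
Signal of each endothelial probe above its local background (x axis, intensity units) in Cy5 (left) and Cy3 (right), for the arch pool (red circles) and the thoracic pool (blue squares). Probes of a gene are numbered from the brightest, open symbols are spots not well above background, and the vertical lines mark the 95th percentile of 314 negative control spots in the arch channel (dashed) and the thoracic channel (dotted). The Tie1 probe, the dimmer Pecam1 probe and the dimmest Vwf probe sit near the lines, and in Cy3 so do the brighter Pecam1 probe and both Cdh5 probes. The Esam probe is lower in the arch in each dye.

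None of the 9 measured members differed by the rule for a call, 1.5-fold or more on each array with 1 sign. Of all measured genes 0.257% (55) were higher in the arch by this rule and 0.229% (49) lower, together 0.487%, so a list of 9 genes with 0 called lies near the background. With an offset of 0 in the background correction 0 members were called, against 0.548% of all genes higher and 0.487% lower, together 1.03%. With median centring in place of loess the split over all genes was 28 higher and 75 lower. The median log2 ratio over all measured genes was then −0.0418, and 34.4% lay above 0. List medians given below with median centring stand beside that value. The members' median log2 ratio of arch over thoracic aorta was 0.06, against 0.0023 over all measured genes. Vwf, Emcn, Egfl7 and Nos3 lay above 0 on both arrays, Esam and Cdh5 below 0 on both at their brightest probe, and Pecam1, Tek and Cldn5 had opposite signs on the arrays. Over all measured genes 28.4% lay above 0 on both arrays. In bulk tissue such as this, fewer endothelial cells and less RNA per cell cannot be told apart.

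The rule has little reach at these signals. The ratios were computed with 50 units added to each channel to steady dim spots. If the dimmer region had been at the level of the negative controls, 9 of the 15 member probes would still have stayed under 1.5-fold. These are both Pecam1 probes, both Cdh5 probes, the dimmer Tek probe, Tie1, Nos3 and the 2 dimmer Vwf probes, at most 1.31-fold (Nos3) and as little as 1.07-fold (Tie1). For them a ratio near 0 does not show equal levels. The other 6, the probes of Esam, Cldn5, Egfl7 and Emcn and the brightest of Vwf and Tek, could have reached between 1.69-fold (Tek) and 2.30-fold (Esam). The scanner software's own ratios carry no such addition and are given beside the others.

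Among the junction proteins, Esam, an adhesion molecule of endothelial junctions and platelets, was the member furthest below 0. Its probe gave 78.2 and 91.2 units in the arch pool (arrays 1 and 2), against 112 and 103 in the thoracic pool. Both arch values were below both thoracic values, although the dyes were swapped between them. These signals are not normalised. The median gene spot was also lower in the arch in each dye, 39.2 against 43.4 in Cy5 and 54.4 against 55.9 in Cy3. The log2 ratio was −0.16 ± 0.02, and 4.53% of measured genes had a lower one. The scanner software's ratio was −0.27 ± 0.06, and all 10 settings that gave a ratio put Esam below 0, from −0.27 to −0.14. These settings are not independent. For a member with 1 probe, such as Esam, the other filters and probe averaging return the main ratio. The value table returns the scanner ratio.

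Cldn5, which seals endothelial tight junctions, measured 77.0 and 97.1 units in the arch pool, against 97.1 and 80.3 in the thoracic pool. In each dye the pools differed by under 4 units, and the ratio was 0.06 ± 0.10, its arrays having opposite signs. Taken over its negative controls, Cldn5 stood 69.0 units above them in the arch pool, against 70.2 in the thoracic pool, as means of the arrays.

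Cdh5 encodes VE-cadherin, the adherens junction protein of endothelium, and was dim. Its brighter probe gave 20.8 and 40.6 units in the arch pool, against 38.9 and 31.0 in the thoracic pool, with the arch well above background on 1 array of 2. Its other probe gave 22.0 and 37.3 units in the arch pool, against 31.3 and 27.1 in the thoracic pool. The probes' ratios differed in sign, −0.05 ± 0.02 and 0.03 ± 0.11, and so did those of the scanner software (−0.23 ± 0.04 and 0.18 ± 0.42). Cdh5 therefore has no settled direction here.

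Pecam1, an adhesion protein of endothelial junctions that platelets and leukocytes also carry, was also dim. The brighter probe gave 21.0 and 40.0 units in the arch pool, against 35.8 and 30.3 in the thoracic pool, with a ratio of −0.02 ± 0.05 that was 0.02 with median centring. The other probe gave 16.3 and 32.0 units in the arch pool, where it was not well above background on either array, against 33.5 and 12.2 in the thoracic pool, where it was so on 1 of 2. That probe has no ratio that can be read.

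The angiopoietin receptor Tek (Tie2), which keeps the endothelium quiescent, was represented by probes that disagreed. The brighter gave 44.7 and 69.8 units in the arch pool, against 61.3 and 69.6 in the thoracic pool. The dimmer gave 33.1 and 44.7 in the arch pool, against 41.8 and 20.7 in the thoracic pool, where it was well above background on 1 array of 2. Their ratios were −0.04 ± 0.04 and 0.18 ± 0.03. With the scanner software's ratios the brighter was −0.11 ± 0.02 and the dimmer 0.77 ± 0.15, or 1.70-fold, the one member probe that met the 1.5-fold rule under any of the ratios. By gene that setting called 0 members, where 0.711% of all genes were called higher and 0.599% lower, together 1.31%. The probes were designed on different transcript records, and whether they read different transcripts was not tested.

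Tie1, the receptor that pairs with Tek, stood 4.40 units over the negative controls in the arch pool, against 4.62 in the thoracic pool, as means of the arrays. The probe gave 17.6 and 27.3 units in the arch pool, against 33.8 and 12.4 in the thoracic pool. It was well above background on 0 of 2 arrays for the arch, against 1 of 2 for the thoracic pool. Tie1 transcripts were thus at the limit of what these arrays detect, and no fold is given.

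**Figure D2:**
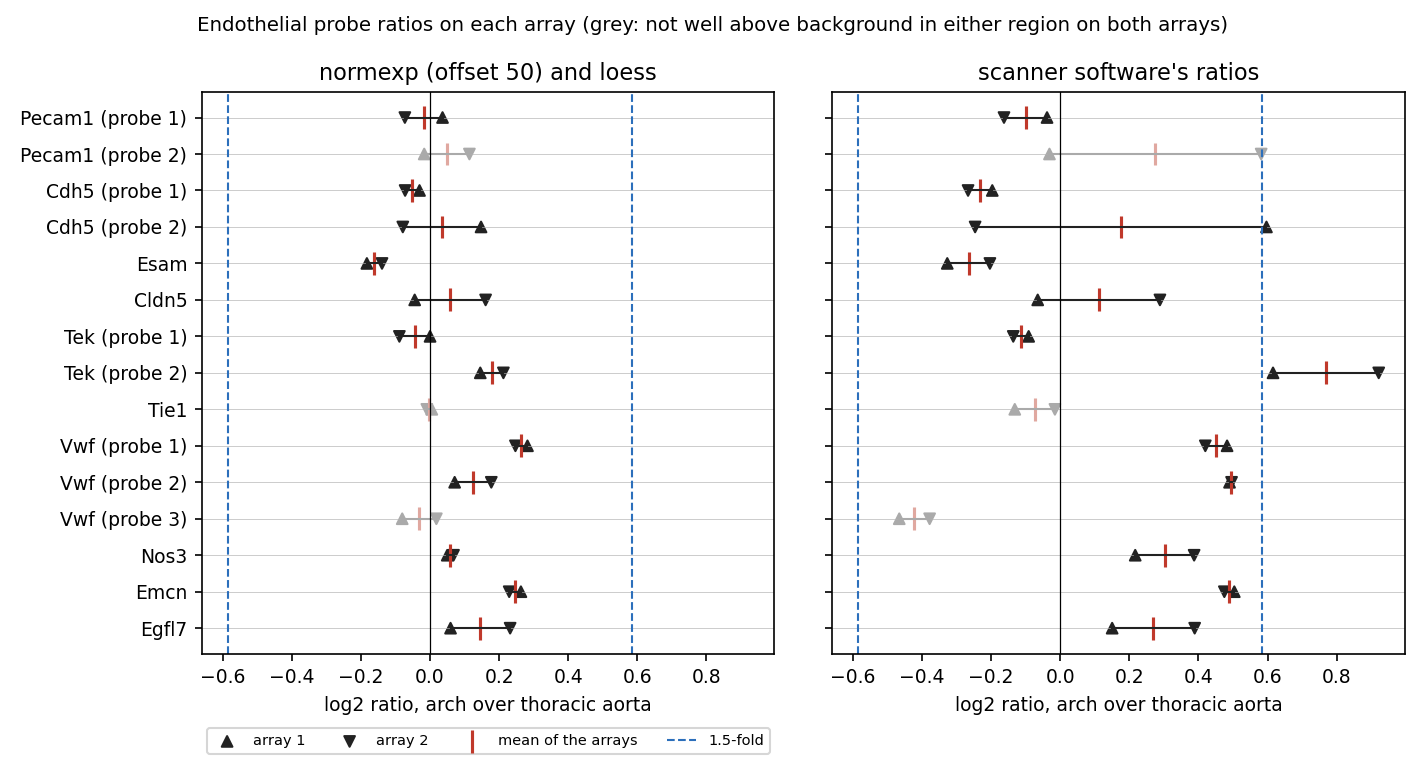
Log2 ratio of arch over thoracic aorta (x axis) for each endothelial probe on array 1 (upward triangles) and array 2 (downward triangles), with the mean as a red bar and dashed lines at 1.5-fold, from normexp with an offset of 50 and loess (left) and from the scanner software (right). Grey probes were well above background on both arrays in neither region. On each array Emcn, Egfl7, Nos3, the dimmer Tek probe and the brighter 2 Vwf probes lie right of 0 in both panels. Esam and the brighter Cdh5 probe lie left of it on each array, as does the mean of the third Vwf probe, shown in grey. The dimmer Tek probe passes the right-hand dashed line in the scanner ratios (0.62 and 0.92).

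Among the secreted and enzymatic products, Vwf, the clotting factor that endothelium and megakaryocytes make, was with Emcn one of the members furthest above 0. Its brightest probe gave 92.3 and 115 units in the arch pool, against 83.3 and 91.1 in the thoracic pool. Both arch values lay above both thoracic values, by 1.14 units between the Cy5 channels and by 31.5 between the Cy3 channels. The ratio was 0.26 ± 0.02, and 97.8% of measured genes had a lower one. The second probe gave 30.4 and 47.2 units in the arch pool, against 43.2 and 25.0 in the thoracic pool, with a ratio of 0.12 ± 0.05. In the scanner ratios these probes were close to each other at 0.45 ± 0.03 and 0.49 ± 0.00. The third Vwf probe was well above background in neither region on any array, and no fold is read from it. As a gene Vwf was above 0 under all 10 settings, from 0.19 to 0.45.

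Emcn, endomucin, is a mucin-like surface protein that is richest in capillary and venous endothelium. Its probe gave 73.0 and 86.1 units in the arch pool, against 68.9 and 62.8 in the thoracic pool. Here too both arch values lay above both thoracic values, by 10.2 units in Cy5 and 17.2 in Cy3. The ratio was 0.25 ± 0.02, above that of 97.4% of measured genes, and 0.49 ± 0.01 in the scanner ratios, which is 1.40-fold. All 10 settings put it above 0, from 0.21 to 0.49.

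Egfl7, a secreted protein that endothelial cells deposit as vessels form, gave 70.4 and 98.6 units in the arch pool, against 81.9 and 75.5 in the thoracic pool. The arch was 16.7 units above the thoracic aorta in Cy3, the difference in Cy5 was −5.16 units, and the ratio was 0.15 ± 0.09. Nos3, the endothelial nitric oxide synthase, gave 35.6 and 42.7 units in the arch pool, against 49.4 and 25.8 in the thoracic pool. Its ratio was 0.06 ± 0.01, and 0.30 ± 0.09 in the scanner ratios, while arch minus thoracic aorta was 9.84 units in Cy5 and −6.74 in Cy3. For both genes the pools therefore overlapped by signal before normalisation, though all 10 settings put the ratio above 0.

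**Figure D3:**
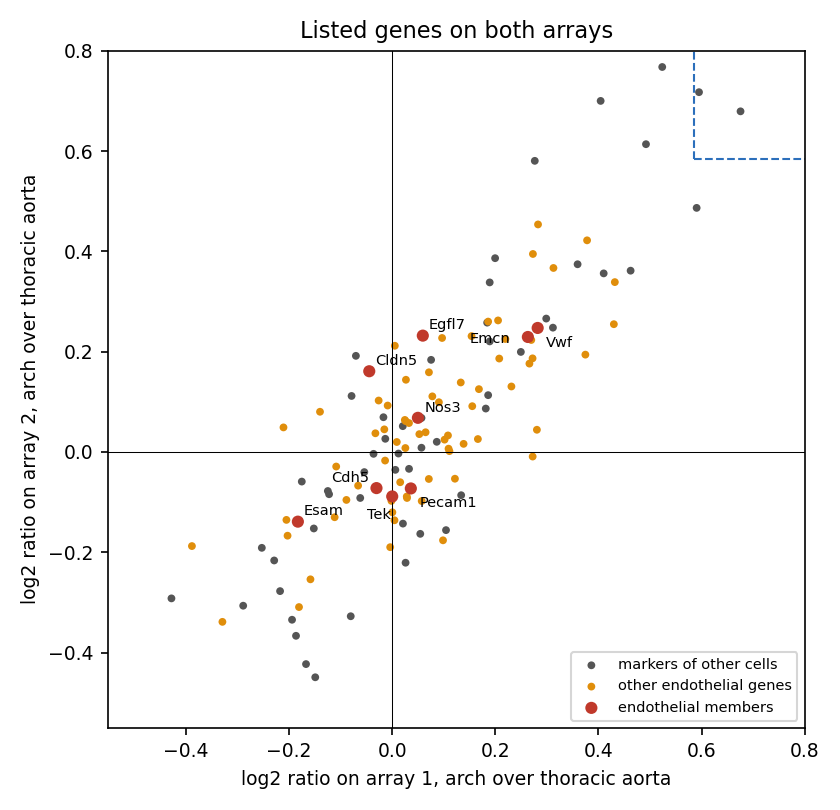
Log2 ratio of arch over thoracic aorta on array 1 (x axis) and array 2 (y axis) for the measured genes of all lists, with the endothelial members named in red, other endothelial genes in orange and markers of other cells in grey. The dashed corner marks 1.5-fold on each array, and 7 of 137 genes lie outside the plotted range (Calcrl, Cidea, Cox7a1, Cox8b, Myl7, Thbd and Tnnt2). The members lie between Esam at the lower left and Vwf and Emcn at the upper right, all short of the corner.

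The brightest probes of the 10 members were summed before normalisation. In Cy5 they gave 531 units in the arch pool, against 582 in the thoracic pool, and in Cy3 708 against 662. These sums hold non-specific signal, which was higher in Cy3, so they are compared within a dye only. The direction of the sums thus changed with the dye, and the calls, 0 of the members, have little reach at these signals. Within the members the bright probes of Vwf and Emcn and that of Esam lay on opposite sides of 0 by more than the arrays differed.

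A further 74 genes, listed for their link to endothelium, were read in 9 lists, and 70 were measured. Some gave signals far above the members', such as Cav1 at 10560 units and Cd34 at 7163 in the arch on array 1. Which cells of the wall gave these signals was not tested. By the 1.5-fold rule 1 was higher in the arch (Thbd), 1 was lower (Calcrl), and 47 lay above 0, with a median of 0.05. Over all measured genes 0.487% were called in either direction, 51.5% lay above 0 and the median was 0.0023. Thbd, the thrombin receptor thrombomodulin that makes the endothelial surface anticoagulant, measured 1.04 ± 0.01. Calcrl, the receptor that binds adrenomedullin and CGRP, measured −1.03 ± 0.04 where its signal was brightest. A further Calcrl probe measured −0.03, and averaging the probes ended the call. The other anticoagulant and vasoactive genes lay from −0.29 ± 0.10 (Nostrin, which traffics nitric oxide synthase) to 0.25 ± 0.02 (Ece1, the endothelin-converting enzyme). Cav1, the coat protein of caveolae, measured 0.22 ± 0.04 (0.08 at another probe). The list median was 0.12 (0.02 with median centring), and 5 of 8 lay above 0.

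Among growth factor and other receptors and their ligands 12 of 15 lay above 0, as did 51.5% of all measured genes, and the median was 0.09 (0.02 with median centring). Vegfb measured 0.28 ± 0.09 (0.08 at another probe), the co-receptor Nrp2 0.23 ± 0.04 (0.02 at another) and placental growth factor, Pgf, 0.20 ± 0.01. Of 10 junction and surface proteins 0 were called and the median was 0.04 (0.0092 with median centring and −0.0016 on array 1 alone). Mmrn2, a matrix protein of endothelium, measured 0.34 ± 0.03, Pcdh12, a protocadherin, 0.33 ± 0.06 (−0.01 at another probe) and Cd93 −0.12 ± 0.01 (0.07 at another). In the scanner ratios Mmrn2 was 0.70 ± 0.02 and met the rule. Tight junction partners of Cldn5 had a median of 0.13 (0.04 with median centring) over 4 measured genes, with F11r, the junctional adhesion molecule, at 0.39 ± 0.05, Tjp1 at 0.16 ± 0.07 (−0.0065 at another probe) and Cgn at 0.10 ± 0.07, while Ocln was not well above background.

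The 10 endothelial transcription factors were all measured and 0 were called, with a median of 0.04 (0.0020 with median centring and −0.02 on array 2 alone). The ETS factor Fli1 measured 0.22 ± 0.04 (0.02 at another probe), the flow-responsive Klf2 0.13 ± 0.14 (−0.04 with median centring) and Sox18 0.09 ± 0.02. Markers of the arterial lining had a median of 0.06 (−0.0077 with median centring) over 7 genes, with Hey1, a Notch target, at 0.40 ± 0.02, the gap junction protein Gja4 at −0.24 ± 0.06 and the netrin receptor Unc5b at 0.22 ± 0.00. Markers of capillaries and veins had a median of 0.03 (−0.05 with median centring) over 8 genes. Fabp4 (0.34 ± 0.09, and 0.17 at its lowest probe) and Cd36 (0.23 ± 0.03), which bind and take up fatty acids and which fat cells also express, lay highest. Nr2f2, which sets venous identity, measured −0.21 ± 0.05 (−0.04 at another probe). Of the activated endothelium's adhesion molecules Vcam1 measured 0.37 ± 0.09 (0.26 at another probe) and Icam1 −0.18 ± 0.02 (−0.06 at another). Selp measured 0.04 ± 0.02 (−0.06 with median centring and −0.0070 at another probe), and Sele was not measured. Lymphatic markers had a median of −0.08 over 5 genes (−0.14 on array 1 alone and 0.05 on array 2 alone). Lyve1, a hyaluronan receptor that macrophages can also carry, measured −0.33 ± 0.00 (−0.09 at another probe). Flt4, the receptor of lymphatic growth factors, measured 0.12 ± 0.04 and Mmrn1 −0.09 ± 0.00.

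**Figure D4:**
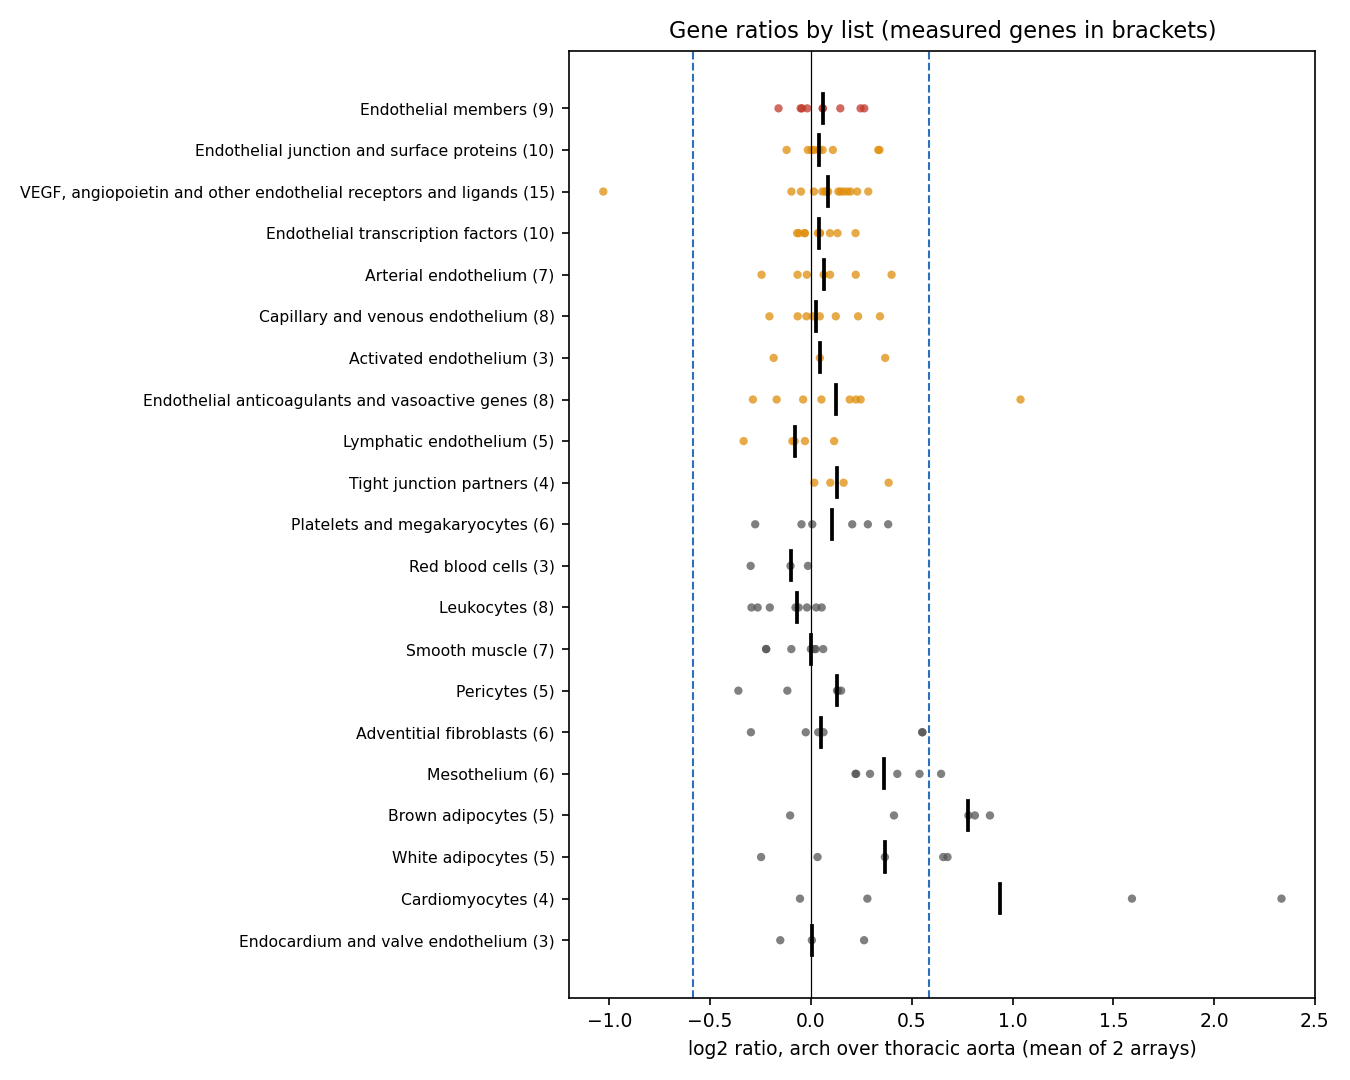
Log2 ratio of arch over thoracic aorta (x axis, mean of 2 arrays) for each measured gene of the endothelial members (red), the other endothelial lists (orange) and lists for other cells (grey). Black bars are list medians, the thin vertical line is the median of all measured genes and dashed lines mark 1.5-fold. The endothelial medians lie between −0.08 and 0.13, and those of mesothelium, fat and cardiomyocytes lie further right.

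Some markers of other cells, in the fat and cardiomyocyte lists, were called by the 1.5-fold rule and stand beside these values. Over all measured genes 0.257% were called higher in the arch and 0.229% lower. With median centring 28 of all 21366 measured genes were called higher. Of 5 brown adipocyte markers 3 were called higher in the arch (1 with median centring), while Elovl3, a fatty acid elongase, measured −0.10 ± 0.02, with a list median of 0.78 and summed signals of 9411 and 8451 units in the arch, against 5201 and 6715 in the thoracic aorta. Of 5 white adipocyte markers 2 were called higher (0 with median centring), with a median of 0.37 (0.19 with median centring). Retn went the other way at −0.25 ± 0.03, and Lep measured 0.03 ± 0.02. The white adipocyte sums, mostly those of Cfd, were 16740 and 14610 in the arch, against 11610 and 14990 in the thoracic aorta. All 6 mesothelial markers lay above 0, with a median of 0.36 and 0 called. In the scanner ratios 4 of them were called higher, as were 0.711% of all genes, and the median was 0.77. The mesothelial sums, mostly those of Msln, were 908 and 1041 in the arch, against 681 and 726 in the thoracic aorta. Of 4 measured cardiomyocyte markers 2 were called higher. Myl7, the atrial myosin light chain, gave 487.5 and 455.6 units in the arch, against 75.5 and 66.3 in the thoracic aorta, with a ratio of 2.33 ± 0.01, and Tnnt2, cardiac troponin T, measured 1.59 ± 0.03. The list's sums of 14490 and 12500 in the arch, against 11800 and 17900 in the thoracic aorta, are mostly those of Actc1, cardiac actin, which measured −0.05 ± 0.11, and Myh6 was not measured. No marker of the fat and mesothelial lists was below background on both arrays in either region. Their part in the endothelial values was not tested.

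Cells of the blood can carry Pecam1, Esam and Vwf. Of 6 measured platelet and megakaryocyte markers 0 were called, with a median of 0.11, from Pf4 at −0.28 ± 0.09 to Ppbp at 0.38 ± 0.03, and sums of 2962 and 2940 units in the arch, against 3090 and 4300 in the thoracic aorta. Gp1ba, part of the receptor that binds von Willebrand factor, was not measured. The platelet sums are mostly those of Pf4. Of 8 leukocyte markers 0 were called and 5 lay below 0 on both arrays, with a median of −0.07 and sums of 22870 and 17090 in the arch, against 22450 and 31260 in the thoracic aorta. The leukocyte sums are mostly those of Lyz2. Of 3 measured red cell markers 0 were called, and no median is given because it falls on Hba-a1, whose probe stood at 65250 units for both pools in Cy5, as did those of Acta2 and Tagln. Smooth muscle markers had a median of −0.0004, pericyte markers 0.13, adventitial fibroblast markers 0.05 and markers of endocardium and valve endothelium 0.0046, which median centring put at −0.17, −0.03, −0.12 and −0.12 in the same order, with 0 called in each. Their part was not tested either.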

How the data were processed

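RNA pools of the arch and the thoracic aorta were hybridised to 2 dye-swapped Agilent arrays, and the submitters' processing notes name Feature Extraction 9.1.1.1 as the software. In the deposited scanner files are each spot's signal and local background as an intensity per dye and, per the file headers, a log10 ratio of processed Cy5 and Cy3 signals. The deposited series values equalled that log10 ratio, turned to arch over thoracic, in 99.9% of 41174 features on each array (tolerance 1e-06), with medians of 0. The flags for background and saturation are 0 or 1, per the file headers. No genome build is named there, and no coordinates or probe sequences are given.

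Intensities were corrected by normexp (offset 50) and normalised by loess within arrays with control spots at weight 0 (limma 3.58.1, R 4.3.3). Outlier spots (20 and 4 of 41534) were left out, saturated ones kept, array 2's ratios were turned to the same direction, and replicate spots averaged. A probe was kept where the scanner flag was set for 1 region on each array (30520), and a gene took its brightest kept probe. Symbols came from RefSeq (GRCm38.p6, names only): 23134 spots matched by accession, 6786 by symbol, 3516 by synonym, and 8098 kept the file's name. The scripts were tested on simulated data. Precision is limited by the number of arrays.

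The members and lists were chosen with earlier results of these data known. Named genes are every member with every probe and, for each endothelial list, the called genes and up to 3 others with the largest ratios. Markers of other cells are named beside member results. No search for genes of like pattern was made, since 2 pools give a single ratio per gene. Hbb-b1 was not found on the array by symbol. Alternatives covered the offset, the source of the ratios, centring, the filter, probe averaging, the fold and each array alone.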

Additional observations from a re-analysis of the deposited data

How the results depend on the processing

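None of the endothelial members was called under any alternative: an offset of 0, the scanner software's ratios, the series' value table, median centring, either other filter, the mean over probes, a 1.3-fold or 2-fold rule, or each array alone. Their median of 0.06 was 0.10 with an offset of 0, and 0.11 with the scanner ratios and with the value table. It was 0.028 with no filter on dim probes, where Tie1 entered, and 0.04 to 0.07 on each array alone. With median centring it was 0.016, where the median over all measured genes also moved, from 0.0023 to −0.0418. Over all genes, 55 higher and 49 lower became 117 and 104 with an offset of 0, 152 and 128 with the scanner ratios and with the value table, 28 and 75 with median centring, 134 and 112 at 1.3-fold and 9 and 15 at 2-fold, with 72 to 81 higher and 62 to 67 lower on each array alone. Detected member probes numbered 11 of 15 in each region, where 70.3% (arch) and 72.7% (thoracic) of all probes were detected. On each array alone they numbered 11 to 12 in the arch and 11 to 14 in the thoracic aorta, against 71.3% to 81.5% of gene spots in a channel. The positive and significant flag took all 15, Tie1 among them, and its share over all probes is not given here. Vwf, Emcn, Egfl7 and Nos3 stayed above 0 and Esam below 0 under all 10 settings that gave ratios, while Cdh5, Pecam1, Tek and Cldn5 had both signs. Several of these settings repeat the same value. Emcn, Egfl7, Nos3, Esam and Cldn5 have 1 probe each, so the other filters and probe averaging leave their ratios unchanged. The low signal over background limits Pecam1, Cdh5, Tie1, Nos3 and the dimmer Tek and Vwf probes. The members' single ratios moved by more than the SD between the arrays in 30 comparisons with an alternative, and counts of called genes in the other lists moved by over 1.5 times in 16, among them those of mesothelium and both fat lists. Why values differ between settings was not tested. No paired analysis was possible because there is 1 pool per region, although each ratio is itself a difference within an array.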
